A study of Mus musculus with 4 samples.

Results

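The interferon response genes described here are 38 genes chosen by name: the receptor subunits for type I and type II interferon, interferon regulatory factors (Irf), Stat2, sensors of foreign RNA, and antiviral effectors. Their rows were taken by gene symbol from the authors' deposited table, 1 transcript per gene, the one with the highest mean expression. All 38 were found, among 25177 gene symbols. The study measured nuclear RNA in NIH-3T3, a fibroblast line established from mouse embryos. Every library came from cells that stably carried a fluorescent H2B-mCherry histone, the rtTA3G transactivator and a CDX2 transgene under the doxycycline-responsive TRE3G control element. 2 libraries came from cells treated for 6 h with doxycycline at 500 ng/ml (the treatment protocol in the labels gives the same number per microlitre) and 2 from cells given solvent alone, with 500000 cells each. The labels do not say whether the line was 1 clone, or whether replicates were separate cultures, so the spread behind the p-values may be technical. The comparison asks which nuclear transcripts differ with doxycycline, which induces CDX2, a homeobox factor of intestine and trophectoderm. No library came from cells without the CDX2 transgene, so effects of doxycycline itself and of CDX2 cannot be told apart. Cdx2 itself stood at 4.96 CPM (counts scaled to library size) with solvent and 612 CPM with doxycycline, a 124-fold rise, by the level and fold in the authors' deposited table.

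Interferons are cytokines that warn cells of infection. Type I interferon binds a receptor of the IFNAR1 and IFNAR2 subunits, and interferon gamma one of IFNGR1 and IFNGR2. The bound type I receptor activates the kinases TYK2 and JAK1, and STAT2 then joins IRF9 in a complex that binds the interferon-stimulated response element in promoters of antiviral genes. Interferon gamma acts on gamma-activated sites. Fibroblasts make interferon beta upon infection, and their antiviral genes are known to stay low at rest.

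The promoters show how the members differ in these elements. Promoter sequences came from RefSeq (build GRCm38.p6), and 31 of the 38 members had one. The 250 bases before the transcript start were searched on both strands for the interferon-stimulated response element written as GAAANNGAA, for the gamma-activated site written as TTCNNNGAA, and for CDX-type sites written as GCAATAAA, GTAATAAA, GCCATAAA and GTCATAAA. The 4 promoters below are shown 5′ to 3′ because they set the 1 member that fell (Ifit2) and 1 that rose (Irf1) beside Ifit3 and Isg15, which stayed under the count floor of the test. Capitals mark the matches, which are gamma-activated sites in Ifit2 and Irf1 and interferon-stimulated response elements in Ifit3 and Isg15, some of them overlapping.
Ifit2, chr19:34550444-34550693, plus strand: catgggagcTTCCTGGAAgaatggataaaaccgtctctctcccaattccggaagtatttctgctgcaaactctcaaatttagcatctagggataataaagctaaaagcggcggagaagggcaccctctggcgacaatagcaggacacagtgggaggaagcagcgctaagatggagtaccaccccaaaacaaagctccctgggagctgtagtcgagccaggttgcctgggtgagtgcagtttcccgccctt
Irf1, chr11:53769764-53770013, plus strand: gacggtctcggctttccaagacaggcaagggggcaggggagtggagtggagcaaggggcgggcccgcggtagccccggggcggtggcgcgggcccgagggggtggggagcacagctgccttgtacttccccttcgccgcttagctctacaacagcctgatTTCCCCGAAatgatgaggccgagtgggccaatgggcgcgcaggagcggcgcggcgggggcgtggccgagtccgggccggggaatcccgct
Ifit3, chr19:34583279-34583528, plus strand: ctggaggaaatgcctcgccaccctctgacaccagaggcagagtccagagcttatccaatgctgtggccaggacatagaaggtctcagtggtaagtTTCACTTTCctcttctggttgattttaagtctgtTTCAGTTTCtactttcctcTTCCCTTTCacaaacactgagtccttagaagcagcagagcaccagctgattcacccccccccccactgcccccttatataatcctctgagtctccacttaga
Isg15, chr4:156200819-156201068, minus strand: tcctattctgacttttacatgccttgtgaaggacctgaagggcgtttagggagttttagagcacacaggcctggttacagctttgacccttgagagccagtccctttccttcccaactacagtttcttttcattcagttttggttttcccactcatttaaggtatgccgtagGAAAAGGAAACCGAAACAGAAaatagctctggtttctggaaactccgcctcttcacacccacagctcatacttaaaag

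Stat2 has a single response element 221 bases before its start, shown as a 30-base stretch (chr10:128270267-128270296, plus strand) because it too rose: gcaccctggtTTCAGTTTCctttccctaga. A response element was present in 11 of the 31 member promoters, against 6.93% of 18582 promoters of genes in the table. Among the 7 members that changed it was present in 1, Stat2, and among the 14 with a promoter that were under the count floor, those without reads included, in 7, which include Ifit1, Ifit3, Isg15 and Oas1a. A gamma-activated site was present in 7 of 31 member promoters, against 6.85% of all. Of the members that changed, Irf1, Ifit2 and Eif2ak2 had one, and so did Bst2, Ifnar2 and Irf2, which were tested and not called. Among the 17 tested members with a promoter, 6 had a gamma-activated site and 4 a response element. Besides Stat2, those with a response element were Bst2, Irf2 and Trim25, none of them called. A CDX-type site was found in 0 of the 31 windows, against 2.91% of all promoters. A match describes letters in a window and is not a binding site, and no match says only that these letters are not there. Among windows with a match, those of Eif2ak2, Gbp2, Ifit1, Irf2 and Trim25 hold annotated exons of the same gene. The start used is thus not the only one for these genes. Nor is it for Ifit2 and Irf1, which have other transcripts that start downstream, at 34551088 and 53770473. The bases before those 2 starts were not searched, so the matches shown hold for the start used only. The Stat2 window lies within the row of the neighbouring gene Apof.

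Of the 38 members, 19 reached the floor of the test, a geometric mean of 0.230 CPM over the 4 libraries, which is about 10 counts per library if 0.5 counts were added before the log. Another 14 had reads under that floor, and 5 (Rsad2, Cmpk2, Ifi44, Oas2 and Irf8) had none in any of the 4 libraries, by the authors' deposited table. A change was called where the adjusted p of the authors' limma test lay under 0.05. Of the 19 members tested, 6 rose and 1 fell, or 36.8% called by the authors' deposited table, beside 24.7% of all 12355 genes tested. By direction, 31.6% of the members tested rose, beside 11.3% of all genes, and 5.26% fell, beside 13.4%. Ifnar1, Ifngr2, Irf1, Irf3, Stat2 and Eif2ak2 rose and Ifit2 fell, all by less than 2-fold, by the authors' deposited table. The median log2 fold change of the 19 was 0.19, beside -0.0011 for all genes tested. Of all genes called, 45.7% were higher, and 59.5% when folds were centred on ribosomal protein genes, whose median was -0.044; then 8 members were called higher, with Ifnar2 (adjusted p 0.0202) and Ifngr1 (adjusted p 0.0162) added. The members were chosen with earlier results known, and the counts carry no test of the list as a whole.

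**Figure D1:**
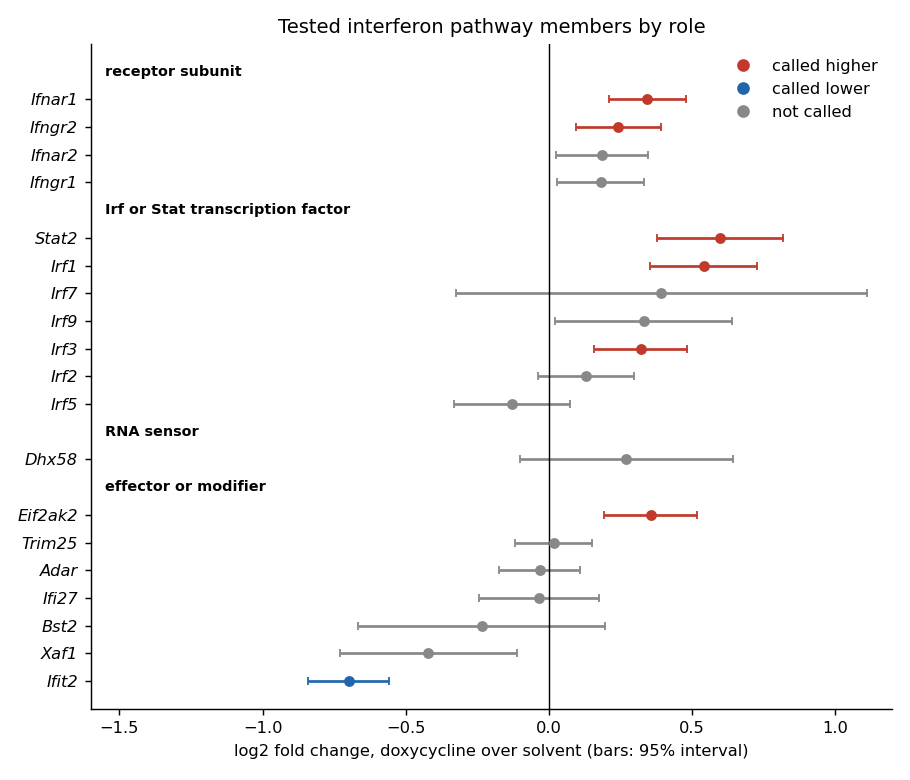
Log2 fold change (doxycycline over solvent, horizontal axis) of the 19 members tested, grouped by role, with 95% intervals as bars; red points were called higher, blue lower and grey not called. All 4 receptor subunits lie above 0, and Ifit2, at -0.70, is the lowest of the 19 members tested.

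The authors' deposited table holds 1 fold change and 1 mean level per transcript and no value per library, so the levels given below for each treatment were computed from that level and fold, as geometric means over 2 libraries. Its standard errors follow almost wholly from level and fold (99.2% of their variance on a log scale over 9441 genes), so they were pooled over transcripts and do not show the replicate spread of a single gene. With each standard error multiplied by 2.08, the robust spread of the t scores, Ifit2 alone among the members was called (adjusted p 0.000171). The 6 rises were not called then, although 4 of them had an unadjusted p under 0.05. The factor of 2.08 was taken over all genes tested, called ones included. It can thus hold differences between the treatments as well as replicate spread.

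Fibroblast markers were abundant. All 8 fibroblast markers were tested, and they summed to 6626 CPM with solvent and 5479 CPM with doxycycline, with 6 of them lower and the others not called, by the authors' deposited table. Of 10 markers of macrophages and other leukocytes, cells rich in interferon response genes, 2 were tested (Cd68 and Cd14, of which Cd14 rose) and 5 had no reads, among them Adgre1, Tyrobp, Cd3e and Siglech. Those 10 summed to 6.73 CPM with solvent and 9.13 CPM with doxycycline by the authors' deposited table. Endothelial markers summed to 4.62 and 3.95 CPM and epithelial markers to 1.47 and 0.509 CPM with solvent and doxycycline. Of 4 markers in each of these lists 1 was tested: Cdh5 (endothelial) was not called, and Cdh1 (epithelial) fell. The part of these shifts in the members' values was not tested. In bulk RNA, fewer cells that express a gene and less RNA per cell cannot be told apart.

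The receptor subunits were all well expressed, and 2 of the 4 rose, beside 11.3% of all genes tested. Ifnar1, the subunit of the type I receptor that binds TYK2 (chromosome 16, 91485215 to 91510522, mm10), stood at 41.7 CPM with solvent and 52.9 CPM with doxycycline by the authors' deposited table. That is a rise of 0.34 ± 0.069 (log2 fold change ± standard error), or 1.27-fold with a 95% interval of 1.16-fold to 1.39-fold, with an adjusted p of 1.07e-05 in the authors' deposited table. Ifngr2, the signalling subunit of the interferon gamma receptor (chromosome 16, 91547059 to 91564007), stood at 20.1 and 23.8 CPM and rose by 0.24 ± 0.076 (adjusted p 0.0130) in the authors' deposited table. Ifnar2, the partner of Ifnar1, was at 14.9 and 17.0 CPM, with a fold of 0.19 ± 0.082 that did not pass (adjusted p 0.118) in the authors' deposited table. Its row shares bases with the same-strand gene Gm21970 in GENCODE M21. Ifngr1, the ligand-binding partner of Ifngr2, was at 20.3 and 23.02 CPM, with a fold of 0.18 ± 0.077 that did not pass either (adjusted p 0.105) in the authors' deposited table. So both pairs held 1 subunit that passed and 1 that did not, and the 95% intervals overlapped within each pair; the difference between partners was not tested. Per kilobase of exon, Ifngr2 and Ifngr1 had the highest mean levels of all 19 members tested (10.5 and 10.3 CPM per kb), above Ifnar1 (6.72) and Ifnar2 (5.25), by the levels in the authors' deposited table.

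Ifnar2, Ifnar1 and Ifngr2 are neighbours on chromosome 16, in a stretch of 191 kb that also holds Il10rb, a subunit of the interleukin 10 and interferon lambda receptors. Il10rb rose by 0.26 ± 0.086 (adjusted p 0.0220) by the authors' deposited table. The next tested gene, Tmem50b, was at 0.20 ± 0.081 (adjusted p 0.0822), and the one after it, Gart, an enzyme of purine synthesis, fell by 0.26 ± 0.066 (adjusted p 0.00123) in the authors' deposited table. Of the 4 tested receptor genes in the stretch, with Il10rb from outside the 38 members, 3 rose and all had positive folds. Of all genes tested, 11.3% rose. Ifngr1 lies apart from them, on chromosome 10.

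**Figure D2:**
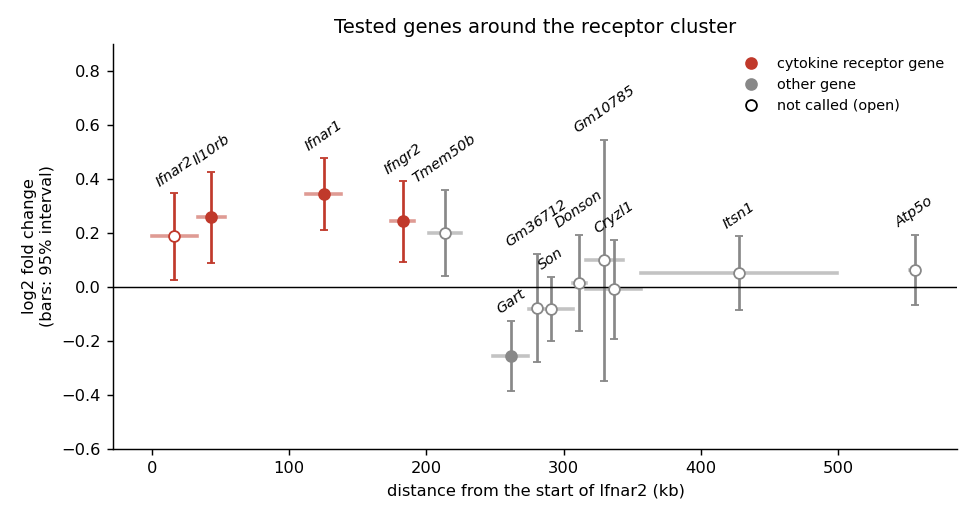
Log2 fold change (doxycycline over solvent, vertical axis, bars 95% interval) of tested genes by distance from the start of Ifnar2 in kb, with each gene's span as a horizontal line; red marks cytokine receptor genes, grey other genes, and open points were not called. The receptor genes lie between 0.19 and 0.34, and Gart lies at -0.26.

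Of the 9 Irf and Stat2 genes, 7 were tested and 3 rose, beside 11.3% of all genes tested. Irf1, an activator induced by interferon gamma that itself turns on antiviral genes (chromosome 11, 53770014 to 53777324), stood at 7.11 CPM with solvent and 10.3 CPM with doxycycline by the authors' deposited table. It rose by 0.54 ± 0.096, or 1.45-fold (95% interval 1.28-fold to 1.66-fold, adjusted p 4.68e-07), by the authors' deposited table. The other transcripts of Irf1 had folds of 0.52 and 0.57 there, so all 3 transcripts gave similar folds. The span of Irf1 holds Gm17334 on the opposite strand in GENCODE M21, and whether counting used strand is not stated in the sources used here.

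Stat2, a transcription factor of the type I response (chromosome 10, 128270498 to 128292853), stood at 3.77 and 5.70 CPM by the authors' deposited table. Its rise of 0.60 ± 0.11, or 1.51-fold (95% interval 1.30-fold to 1.76-fold, adjusted p 2.15e-06), was the largest rise called among the members in the authors' deposited table. By size it was number 282 of the 1393 genes that rose, and Irf1 was number 358. The first 753 bases of its row overlap that of Apof, an apolipoprotein gene on the same strand, which had a mean of 0.331 CPM and a fold of 0.82 ± 0.31 (adjusted p 0.0550) in the authors' deposited table. Irf9, the DNA-binding partner of STAT2, was at 1.26 and 1.58 CPM, with a fold of 0.33 ± 0.16 (adjusted p 0.168) in the authors' deposited table. Of this pair, Stat2 passed the test and Irf9 did not; the difference between them was not tested.

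Irf3, the latent factor that RNA sensing activates to start interferon beta transcription (chromosome 7, 44997648 to 45002848), stood at 12.2 and 15.3 CPM by the authors' deposited table. It rose by 0.32 ± 0.083 (adjusted p 0.00136) in the authors' deposited table, and its other transcript by 0.31. The first 1065 bases of its row overlap Bcl2l12 on the opposite strand in GENCODE M21. Irf2, which competes with IRF1 for its sites, was at 12.0 and 13.2 CPM with a fold of 0.13 ± 0.086 (adjusted p 0.416) in the authors' deposited table. Irf7, the factor that amplifies interferon production, lay just over the floor at 0.214 and 0.281 CPM, with a wide fold of 0.39 ± 0.37 (adjusted p 0.679) in the authors' deposited table. Irf4 and Irf8, factors of blood cells, lay under it, Irf4 at a mean of 0.0524 CPM and Irf8 without reads in the authors' deposited table.

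The value of Irf5, a factor downstream of toll-like receptors, depended on the transcript. The row chosen had a mean of 6.92 CPM and a fold of -0.13 ± 0.10 (adjusted p 0.563) in the authors' deposited table. Its last 1043 bases overlap the end of Tnpo3 on the opposite strand, a gene with a mean of 88.6 CPM by the authors' deposited table. The other Irf5 rows stop before Tnpo3, and they had means of 0.217 and 0.206 CPM and folds of 0.41 ± 0.35 and 0.50 ± 0.36 by the authors' deposited table. The level of Irf5 is therefore uncertain, and a count without it leaves 18 members tested.

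**Figure D3:**
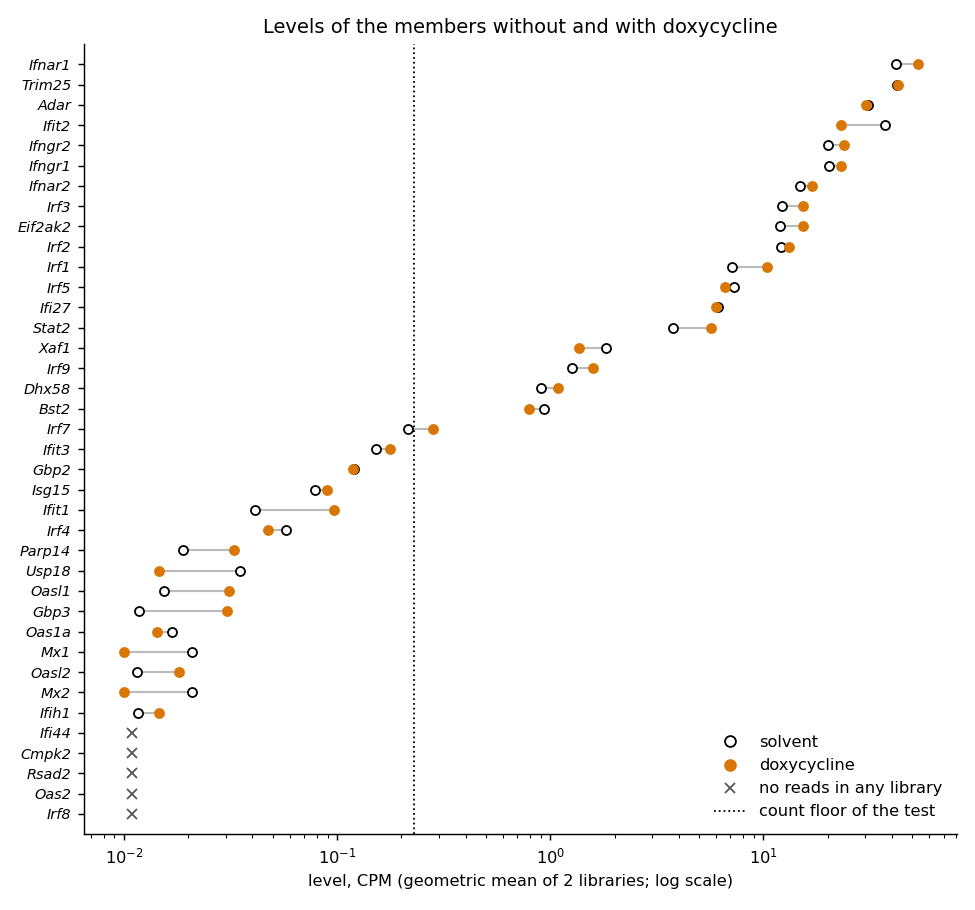
Level of each of the 38 members in CPM on a log axis, as the geometric mean of 2 libraries with solvent (open) and 2 with doxycycline (orange), computed from the deposited level and fold and holding the counts added before the log; crosses mark genes without reads and the dotted line the floor of the test. The 4 receptor genes lie above 10 CPM, while 16 of 23 effectors lie under the floor or without reads.

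The 2 members grouped as RNA sensors were low. Dhx58, which encodes the RIG-I-like regulator LGP2, was at 0.903 and 1.09 CPM with a fold of 0.27 ± 0.19 (adjusted p 0.474) in the authors' deposited table. Ifih1, which encodes the sensor MDA5, was 1 step above the value of genes without reads in the authors' deposited table, the least a library can add, so a single library held its reads.

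Effectors and modifiers were the largest group, with 23 genes, of which 7 were tested, 12 had reads under the floor and 4 had none. Ifit2, an antiviral protein with tetratricopeptide repeats (chromosome 19, 34550694 to 34576534), stood at 37.4 CPM with solvent and 23.02 CPM with doxycycline by the authors' deposited table. It fell by 0.70 ± 0.072 (log2), or 1.62-fold (95% interval 1.47-fold to 1.79-fold, adjusted p 2.27e-20), in the authors' deposited table. That was the largest change among the members called and number 292 by size of the 1654 genes that fell. Its other transcript fell by 0.70 as well. Its level was far above those of its relatives. Ifit3 (mean 0.164 CPM) and Ifit1 (0.0627 CPM), which lie in the same cluster on chromosome 19, were under the floor in the authors' deposited table. Per kilobase of exon, the mean of Ifit2 was 7.44 CPM, that of Ifit3 0.0822 and that of Ifit1 0.0238, by the levels in the authors' deposited table. Ifit1 had a fold of 1.23 ± 0.58 (adjusted p 0.157) in the authors' deposited table, on very few reads.

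Eif2ak2, which encodes the kinase PKR that halts translation on binding double-stranded RNA (chromosome 17, 78852550 to 78882572), stood at 12.0 and 15.3 CPM and rose by 0.36 ± 0.082 (adjusted p 2.42e-04) in the authors' deposited table. That is 1.28-fold, with a 95% interval of 1.14-fold to 1.43-fold. Adar, which edits adenosine in double-stranded RNA and so limits its sensing, was at 30.9 and 30.2 CPM with a fold of -0.032 ± 0.072 (adjusted p 0.873) in the authors' deposited table. Trim25, a ubiquitin ligase of RIG-I, was at 42.3 and 42.8 CPM with a fold of 0.016 ± 0.069 (adjusted p 0.875) in the authors' deposited table. Adar overlaps Chrnb2 on the opposite strand. With these pooled errors the 95% interval ran from -0.17 to 0.11 for Adar and from -0.12 to 0.15 for Trim25 on the log2 scale, and it would be wider with the errors multiplied as above. Both are among the most abundant members, and the sign for Adar turned when folds were centred on ribosomal protein genes.

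Xaf1, a proapoptotic interferon-induced gene, was at 1.83 and 1.36 CPM with a fold of -0.42 ± 0.16, just short of the threshold (adjusted p 0.0501) in the authors' deposited table. It was called when p-values were adjusted over the 12355 genes tested alone (adjusted p 0.0306). Bst2, which encodes the viral tether tetherin, was at 0.932 and 0.792 CPM with a fold of -0.24 ± 0.22 (adjusted p 0.682) in the authors' deposited table. Ifi27, an interferon-induced gene of membranes, was at 6.10 and 5.96 CPM with a fold of -0.034 ± 0.11 (adjusted p 0.873) in the authors' deposited table, a sign that also turned with that centring, and its row lies within the longer of the Ifi27l2a transcripts on the opposite strand.

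The other antiviral genes had few or no reads with and without doxycycline. Among the 14 members with reads under the floor, mean levels ran from 0.0130 CPM for Ifih1 to 0.164 CPM for Ifit3, and standard errors of the fold from 0.40 to 0.86, by the authors' deposited table. Isg15, a ubiquitin-like modifier, had a mean of 0.0839 CPM and Usp18, the protease that removes it, 0.0225 CPM in the authors' deposited table. Gbp2, a guanylate-binding protein induced by interferon gamma, had a mean of 0.119 CPM, and its relative Gbp3 0.0189 CPM, in the authors' deposited table. Parp14, an ADP-ribosyltransferase, had 0.0249 CPM, and Oasl1 and Oas1a, of the oligoadenylate synthetase family, 0.0219 and 0.0155 CPM in the authors' deposited table. Mx1, Mx2 and Oasl2 each lay 2 such steps above the value of genes without any in the authors' deposited table, which only a single library with reads can give. Of these 14 genes, 1 (Ifit1) had an unadjusted p under 0.05 and 0 had an adjusted p under 0.05, by the authors' deposited table. The effective library was 45712500 counts (geometric mean) if 0.5 counts were added, and the standard errors of these folds were wide.

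**Figure D4:**
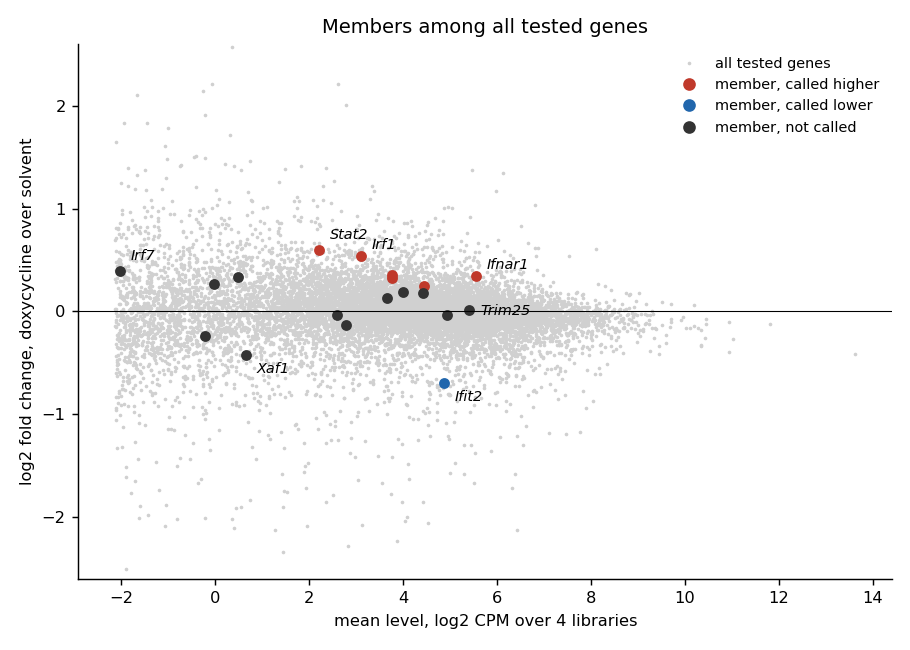
Log2 fold change (doxycycline over solvent, vertical axis) against mean log2 CPM over 4 libraries (horizontal axis) for all 12355 genes tested (grey) and the 19 members (red called higher, blue lower, black not called); 3 genes beyond a fold of 2.6 on the log2 scale, Cdx2 among them, are outside the plot. Ifit2 at -0.70 and Stat2 at 0.60 are the outermost members called.

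Other genes of the pathway were taken from 4 lists with 127 genes, of which 77 were tested. Of these, 25 rose and 5 fell, 39.0% called by the authors' deposited table beside 24.7% of all genes. Genes of sensing and ligands had 5 rises and 2 falls among 12, or 58.3% called. Tlr4, the receptor for endotoxin, fell from 41.4 to 25.02 CPM (-0.73 ± 0.071, adjusted p 3.34e-22) in the authors' deposited table. Sting1, the adaptor of DNA sensing, rose from 5.86 to 11.1 CPM (0.93 ± 0.10, adjusted p 7.13e-18) by the authors' deposited table. The adaptors of toll-like receptors Ticam1 (0.47 ± 0.093, adjusted p 8.47e-06) and Myd88 (0.41 ± 0.091, adjusted p 8.77e-05) rose as well by the authors' deposited table. The remaining genes of the list that passed, chosen after their values were seen, were the RNA receptor Tlr3 (0.49 ± 0.14) and the kinase Tbk1 (0.25 ± 0.076), both higher, and the adaptor Traf3 (-0.21 ± 0.070), lower, in the authors' deposited table. Interferon genes themselves were at or near no reads: Ifna2 and Ifna4 had none, and Ifnb1, which encodes interferon beta, lay far under the floor (adjusted p 0.755) in the authors' deposited table.

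Genes of JAK-STAT signalling had 9 rises and 2 falls among 17, or 64.7% called, in the authors' deposited table, beside 24.7% of all genes. Irf2bpl, which encodes a relative of the IRF2-binding proteins, rose from 41.8 to 94.3 CPM (1.17 ± 0.067, adjusted p 1.36e-65) in the authors' deposited table. Socs1, the feedback inhibitor of interferon receptors, fell from 12.9 to 4.84 CPM (-1.42 ± 0.098, adjusted p 1.34e-44) in the authors' deposited table. Stat5a (0.59 ± 0.083, adjusted p 4.45e-11) and Stat3 (0.40 ± 0.067, adjusted p 5.00e-08), factors of other cytokines, rose by the authors' deposited table. Of the kinase genes, Tyk2 (0.47 ± 0.082, adjusted p 2.29e-07) and Jak2 (0.38 ± 0.077, adjusted p 1.05e-05) rose by the authors' deposited table. Jak1 (0.070 ± 0.062, adjusted p 0.652) did not pass there. These kinase genes were named after their values were seen. The other gene that fell was Socs3, a relative of Socs1 (-0.26 ± 0.070), in the authors' deposited table, named after its value was seen. Both genes that changed at least 2-fold here, Irf2bpl and Socs1, thus lay outside the 38 members.

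Of 70 other interferon-stimulated genes listed, 35 were tested. Of these, 10 rose and 1 fell by the authors' deposited table, or 31.4% called, beside 24.7% of all genes. By direction, 11.3% of all genes tested rose and 13.4% fell. Plscr1, a phospholipid scramblase, had the smallest p (9.17 to 14.2 CPM, 0.63 ± 0.089, adjusted p 8.18e-11), followed by the helicase genes Znfx1 (0.41 ± 0.070, adjusted p 1.85e-07) and Helz2 (0.47 ± 0.083, adjusted p 5.18e-07) and by Slfn9 (0.35 ± 0.066, adjusted p 3.29e-06), by the authors' deposited table. The 1 that fell was Ifi203 (-0.40 ± 0.14), in the authors' deposited table, likewise named afterwards. Cxcl10, a chemokine gene also named afterwards, had the largest rise called in this list (0.85 ± 0.23, adjusted p 0.00197). It was low, at 0.826 and 1.49 CPM, by the authors' deposited table. Antigen presentation genes, which interferon gamma is known to raise, had 1 rise among 13 in the authors' deposited table, or 7.69% called. That was Nlrc5, the activator of class I genes (0.82 ± 0.29, adjusted p 0.0365), at 0.278 and 0.489 CPM in the authors' deposited table. Tapbpl (0.31 ± 0.12, adjusted p 0.0631), the class I gene H2-D1 (0.16 ± 0.063, adjusted p 0.0641) and the proteasome gene Psmb10 (-0.27 ± 0.12, adjusted p 0.108) did not pass, by the authors' deposited table.

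**Figure D5:**
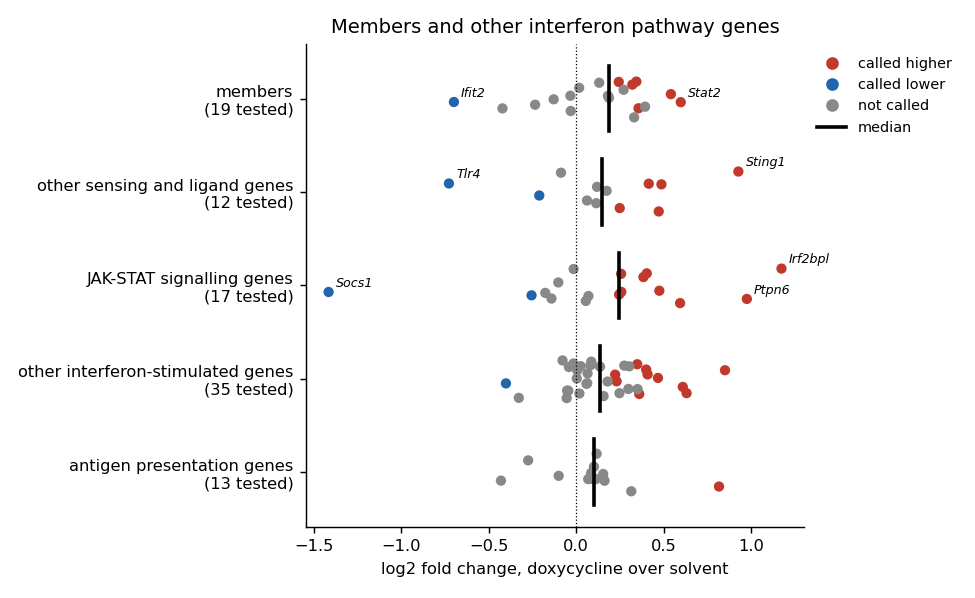
Log2 fold change (doxycycline over solvent, horizontal axis) of the tested genes of each list, 1 point per gene, red called higher, blue called lower and grey not called, with a black line at the median. Medians run from 0.10 for antigen presentation to 0.24 for JAK-STAT signalling, with 0.19 for the members.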

How the data were processed

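Nuclear RNA was sequenced from 2 doxycycline and 2 solvent libraries. Per the submitters' processing notes, which give no role or order, the tools were limma, edgeR, HOMER 4.10, Picard, SAMtools 1.10 and STAR 2.7.1a, with the mm10 build; whether counting used strand is not stated there. The authors deposited 1 table of 40739 RefSeq transcript rows with, per the file headers, the mean expression and the fold change on the log2 scale, limma's t score, and the raw and adjusted p-value, beside other columns with position and length deposited by the authors. It holds no value per library, so the count test that was planned could not be made and the authors' limma test was used.

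The standard error was the fold divided by t. Of several transcripts of a gene, the one with the highest mean was used. Genes under a mean of 0.230 CPM (10 counts per library if 0.5 was added) were not tested, which left 12355. Rows without reads (9211) share the lowest mean and a fold of -0.21, and 100% of 13345 low rows lay on whole steps above it (tolerance 0.01), from which the library size was computed; were 1 read added rather than 0.5, it would be 91425000 and the CPM the same. Adjusted p-values are the authors', over all rows. The text names every member, and in each other list up to 4 tested genes with the smallest p, plus genes a result turns on. Members and lists were chosen with earlier results of these data known. Alternatives changed the floor, the transcript, the adjustment, the threshold, the centring and the standard errors. Some items are not reported here. The scripts were tested on simulated data. Tools were Python 3.11.15, NumPy 2.4.6, pandas 2.3.3, SciPy 1.17.1 and Matplotlib 3.10.9.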

Additional observations from a re-analysis of the deposited data

How the results depend on the processing

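The same 6 members rose and the same 1 fell with floors of 50 counts, 1 count or 1 CPM and with the longest or the smallest-p transcript per gene. With p-values adjusted over the genes tested, and with folds centred on the median of tested genes, 2 members were lower, Xaf1 being added. With an adjusted p under 0.01, Ifngr2 was lost (5 higher). With standard errors widened by 2.08, members higher came to 0, all genes called to 576 and other pathway genes called to 6, against 3047 and 30; this follows from the wider errors. Centred on ribosomal protein genes, Ifi27 (0.010) and Adar (0.012) turned positive, because their folds are smaller than the shift. Without members whose row overlaps another gene in the table, an alternative chosen after seeing the data, 5 were higher, Stat2 being left out. Of 131 member values, 118 kept their direction and side of the threshold. No paired analysis was possible because the table holds no values per library; the fits without each library and with DESeq2 were not run for that reason. Few reads left wide errors on the folds of the 14 members with reads under the floor.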

Other observations

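Some genes close to the members had adjusted p-values under 0.05 while lying under the count floor, and they were picked out after their values were seen. Ifit1bl1, a neighbour and relative of Ifit1, was at 0.114 CPM with solvent and 0.380 CPM with doxycycline (log2 fold change 1.73 ± 0.39, adjusted p 1.77e-04) in the authors' deposited table. Its neighbour Ifit1bl2 was at 0.0581 and 0.208 CPM (1.84 ± 0.49, adjusted p 0.00186) in the authors' deposited table. Both belong to a family of similar genes, and how shared reads were split is not stated in the sources used here. Psmb9, an interferon-induced proteasome subunit, was at 0.107 and 0.267 CPM (1.32 ± 0.40, adjusted p 0.00965) in the authors' deposited table. Ifit3b, beside Ifit3, had a mean of 0.146 CPM and a fold of -0.62, without passing, in the authors' deposited table.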
